A study of Mus musculus with 2 samples.

Results

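Spp1+ Gpnmb+ macrophages were macrophages of dystrophic hind limb muscle that held high levels of osteopontin and glycoprotein Nmb RNA. They were taken from single cell counts by fixed limits on the number of UMIs, the molecular tags that count 1 captured RNA each. A cell counted as a member with at least 500 genes, at least 2 of Csf1r, Adgre1, Fcgr1, C3ar1 and Cd68, and 0 UMIs of Pdgfra, Cdh5, Cd3e and Cd79a. It also had fewer than 3 of 6 cell cycle genes and fewer than 3 of 6 resident macrophage genes (Fcna, Cd163, Ccl24, Cbr2, Lyve1 and F13a1), with Spp1 at 20 UMIs or more and Gpnmb at 3 or more. This gave 212 members in the Ctrl library and 120 in the dKO library, 332 of 7664 cells with at least 500 genes (4.33%) and 332 of the 2068 cells that passed every limit other than Spp1 and Gpnmb (16.1%). Those 2068 cells are called gated macrophages here, and the 1736 that were not members are called other macrophages.

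The study asked how loss of the transcription factor YY1 in muscle stem cells (MuSCs) alters the cells around them in mdx mice, which lack dystrophin. Ctrl mice carried Pax7CreERT2/R26YFP with Yy1+/+ and mdx, dKO mice carried Pax7CreERT2/R26YFP with Yy1 f/f and mdx, and both were given tamoxifen on 5 days from 1.5 months of age. The Cre is driven by Pax7, so it acts in MuSCs and not in macrophages, and all animals of both groups were dystrophic. Hind limb muscle was taken 1 month after the injections, 3 mice per group were mixed into 1 suspension, and live cells were sorted and run on a 10x Chromium platform. Each group was therefore 1 library, no difference below has a replicate check, no test was run, and the 95% intervals cover counting error only.

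Osteopontin, the product of Spp1, is a secreted phosphoprotein that binds integrins and CD44 and is known in muscle for its part in inflammation and fibrosis. GPNMB is a transmembrane glycoprotein of endosomes and lysosomes that is typical of macrophages loaded with lipid or debris. Macrophages with both genes occur in injured and fibrotic tissue, together with genes of lipid uptake and of the lysosome, where the vacuolar ATPase (V-ATPase) pumps protons so that cathepsins and other hydrolases can work.

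The promoters of the genes that set the limits are shown because every statement below rests on cells chosen by these RNAs. Both are from RefSeq (GRCm38.p6) and run from 250 bases before to 50 after the annotated start, on the plus strand. Spp1 lies at chr5:104435118-104441050 and its promoter window at chr5:104434861-104435160. Gpnmb lies at chr6:49036546-49070929 and its window at chr6:49036268-49036567. Capitals mark GAGGAA, a core of the sites of PU.1-type factors, in the window of Spp1, and the AP-1 site TGANTCA in that of Gpnmb.
Spp1: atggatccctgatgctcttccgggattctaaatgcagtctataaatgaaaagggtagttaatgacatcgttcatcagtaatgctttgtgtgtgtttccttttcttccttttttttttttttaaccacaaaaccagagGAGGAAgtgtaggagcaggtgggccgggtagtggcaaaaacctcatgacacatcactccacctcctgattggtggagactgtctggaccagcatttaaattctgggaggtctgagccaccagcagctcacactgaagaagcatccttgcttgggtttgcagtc
Gpnmb: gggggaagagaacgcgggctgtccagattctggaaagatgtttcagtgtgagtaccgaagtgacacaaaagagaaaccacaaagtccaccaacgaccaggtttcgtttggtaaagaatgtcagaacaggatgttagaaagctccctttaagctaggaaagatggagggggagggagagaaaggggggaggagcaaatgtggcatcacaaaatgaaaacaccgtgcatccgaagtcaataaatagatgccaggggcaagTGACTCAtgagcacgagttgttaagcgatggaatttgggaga
The first began 113 bases before the Spp1 start and the second 8 bases after that of Gpnmb, both strands were searched, and neither window held another of the motifs searched. The PU.1-type core was in 28.3% of 32851 RefSeq promoters and the AP-1 site in 7.81%. Of 7 promoters found for the 8 label markers (2 of Spp1 and 1 each of Gpnmb, Hk3, Lgals3, Syngr1 and Rnf128, none being listed for Fabp5 and Atp6v0d2), 3 held the PU.1-type core, 1 held the AP-1 site and 0 held the E-box CACGTG. This E-box, read by factors of the MiT/TFE family among others, was in 7.15% of all promoters, in 4 of 13 matched V-ATPase promoters and in 10 of 27 matched promoters of lysosomal proteins. These matches describe letters in a window and no binding was measured.

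The Ctrl library held 4527 barcodes and 45556596 UMIs, the dKO library 3483 barcodes and 33815155 UMIs, over 24984 gene symbols, and 4335 and 3329 cells had at least 500 genes. The labels fitted Yy1 where the deletion was made. In a gate of MuSCs (at least 2 of Pax7, Myf5, Des and Chodl) Yy1 stood at 175 CPM (UMIs of the gene per 1000000 UMIs of the cells summed, 95% Poisson interval 153 to 200, 78 cells) in Ctrl and 11.6 CPM (5.32 to 22.1, 30 cells) in dKO. In members Yy1 stood at 108 CPM (96.8 to 119) and 142 CPM (124 to 162), so the macrophages kept it. 7 barcodes occurred in both libraries and 1 of those was a member.

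Among cells with at least 500 genes, 4.89% were members in Ctrl (exact 95% binomial interval 4.27 to 5.58) against 3.60% in dKO (2.998 to 4.295). In points, dKO minus Ctrl was -1.29 (Newcombe interval -2.18 to -0.370). Among gated macrophages the shares were 18.6% of 1142 (16.3 to 20.9) and 12.96% of 926 (10.9 to 15.3), with dKO minus Ctrl at -5.60 points (-8.70 to -2.45). Gated macrophages as a whole took 26.3% and 27.8% of cells, 1.47 points more in dKO with an interval that spans 0 (-0.530 to 3.49). Both shares of members were lower in the dKO library, and no replicate can tell the genotype from the pool of mice, the dissociation or the library.

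The limits are in raw UMIs, so they reach deeper cells more easily. Members had a median of 14694 UMIs in Ctrl (3382 to 56639) and 11773.5 in dKO (2195 to 32401), against 7652 and 7222.5 in other macrophages. Cells with at least 5000 UMIs were thinned to 5000 and the limits lowered to 10 Spp1 and 2 Gpnmb UMIs. Shallower cells, 1386 in Ctrl and 1058 in dKO, were left out. Then 210 of 934 Ctrl gated macrophages (22.5%) and 111 of 703 dKO (15.8%) were members, the same direction at equal depth. Neutrophil RNA also differed between the libraries: 144 of 212 Ctrl members (67.9%) and 34 of 120 dKO members (28.3%) held at least 1 UMI of 8 neutrophil genes. Every gated macrophage with such a UMI was then left out, a choice made after the data had been seen. Other cells with one stayed in the total. The step took out 144 members and 363 other macrophages in Ctrl, and 34 and 100 in dKO. It gave 1.78% of Ctrl and 2.69% of dKO cells, a difference of the opposite sign (0.915 points, interval 0.224 to 1.64). Among gated macrophages the same step gave 10.7% and 10.9%, with an interval that spans 0 (0.150 points, -3.16 to 3.36). Members with such a UMI had a median depth of 16387 UMIs in Ctrl and 14571.5 in dKO, against 12014 and 11412 in members without one. In other macrophages the medians were 8959 and 9081 with such a UMI and 6772 and 6885.5 without, and the part of depth in these values was not tested. Leaving out only gated macrophages with at least 1000 CPM of neutrophil genes gave -1.29 and -5.85 points.

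Spp1 ranged from 20 to 1191 UMIs per member in Ctrl (median 67) and from 20 to 1436 in dKO (median 48.5). Gpnmb ranged from 3 to 238 (median 30) and from 3 to 206 (median 21.5). These values chose the members and are given as a description. Members held 7.43% of all Ctrl and 4.60% of all dKO UMIs, and 55.7% and 55.4% of all Spp1 UMIs. They held 45.5% and 37.8% of all Gpnmb UMIs. 1 cell held 15.04% of the Spp1 UMIs of dKO members. The limits cut through a continuous range: with Gpnmb at 3 or more, 18 Ctrl and 22 dKO cells had 20 to 24 Spp1 UMIs and 26 and 29 had 15 to 19. With Spp1 at 20 or more, 8 and 11 cells had 3 or 4 Gpnmb UMIs, 27 and 14 had 1 or 2, and 21 and 12 had 0. Gpnmb alone passed in 269 and 227 gated macrophages and Spp1 alone in 48 and 26, so most cells past the Spp1 limit also passed that of Gpnmb.

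**Figure D1:**
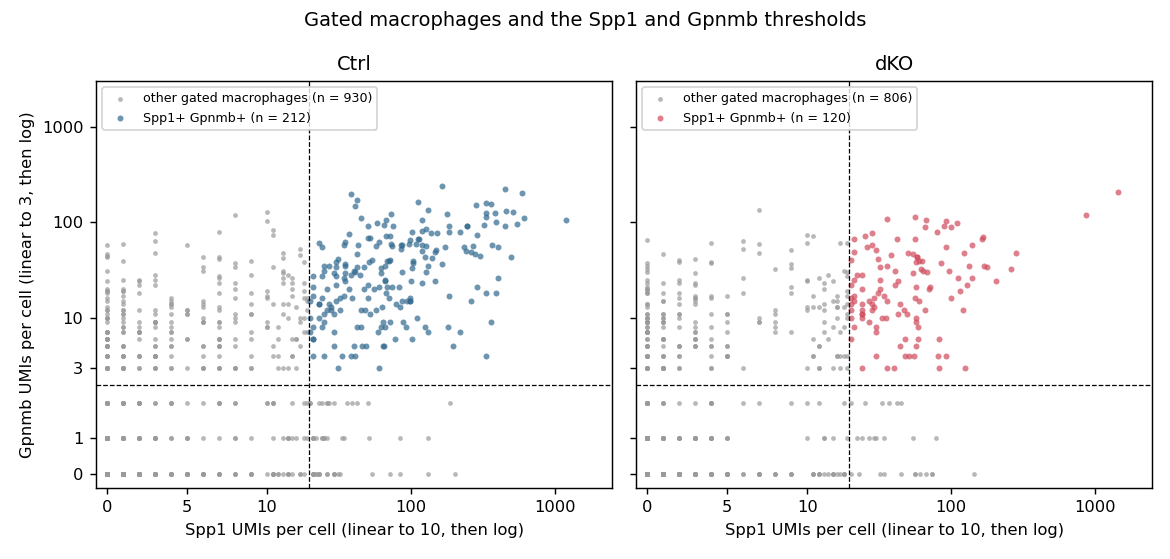
Spp1 UMIs (horizontal axis) against Gpnmb UMIs (vertical axis) of each gated macrophage, with the Ctrl library left and the dKO library right. Both axes are linear near 0 and logarithmic above, dashed lines are the limits, and coloured points are the 212 and 120 members, which run on from the cells below the limits with no gap.

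The label of the cells has 6 further markers that the limits did not use. They were chosen with earlier results of these data known, and all genes of the same cells are tied to the choice. Their levels are therefore no check of the label, and the comparison with other macrophages is a description with no test. All 6 were at least 2-fold higher in members in both libraries. Syngr1, which encodes the vesicle membrane protein synaptogyrin 1, stood at 540.3 CPM against 129 in Ctrl and at 574 against 124 in dKO. Fabp5, a fatty acid binding protein, stood at 4039.8 against 1290.2 and at 4202 against 1313. Atp6v0d2, a V-ATPase subunit of macrophages and osteoclasts, stood at 248 against 81.0 and at 174 against 55.7. The E3 ubiquitin ligase gene Rnf128 differed by 1.71 and 1.39 on the log2 scale in Ctrl and dKO, the hexokinase gene Hk3 by 1.33 and 1.22, and Lgals3, encoding galectin 3, by 1.03 and 1.12.

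At the level of single cells the markers were uneven. Per Ctrl member, Syngr1 ran from 0 to 41 UMIs (median 7), Fabp5 from 0 to 341 (median 44) and Lgals3 from 1 to 764 (median 112). In dKO the ranges were 0 to 24 (median 6), 0 to 215 (median 35.5) and 4 to 510 (median 75.5). Atp6v0d2 had a UMI in 59.0% and 48.3% of members, Rnf128 in 57.5% and 40.8% and Hk3 in 50% and 44.2%. With each cell thinned to 4000 UMIs, Syngr1 was seen in 78.1% of 210 Ctrl and 81.0% of 116 dKO members (91.0% and 93.3% before thinning) and in 29.5% and 24.3% of other macrophages. Fibro-adipogenic progenitors (FAPs), with medians of 13484.5 and 13732 UMIs, gave 0.131% and 0.259% for Syngr1. Endothelial cells, with medians of 5234.5 and 4894.5, gave 0 of 318, which allows a share of cells with a UMI of up to 0.943% (taken as 3 cells of the total), and 0.885%. Fabp5 was seen in 95.2% and 95.7% of thinned members (97.6% and 98.3% before thinning), in 8.76% and 7.12% of FAPs and in 72.3% and 62.8% of endothelial cells.

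Of 9 macrophage identity genes outside the limits, 3 had counting intervals above 0 in both libraries and 3 below (7.81% and 13.3% of all 8493 genes tested), and most lay close to other macrophages. Tyrobp, an adaptor of myeloid receptors, differed by 0.22 in both libraries, Lyz2, encoding lysozyme, by 0.18 and 0.20, and Fcer1g by 0.03 and 0.09. Cd14, the receptor for bacterial lipopolysaccharide, differed by -0.62 and -0.59 and Cx3cr1 by -0.76 and -1.26. Markers of most other cell types were low, and those of neutrophils were not in Ctrl: they summed to 652 CPM in Ctrl and 59.3 in dKO members, and 1 Ctrl member held 1795 of the 2201 Ctrl UMIs. Summed dendritic cell markers stood at 2.67 and 3.22 CPM against 81.1 and 114 in other macrophages, lymphocyte markers at 10.96 and 10.95 and endothelial markers at 15.1 and 16.7. FAP markers (Col1a1, Col3a1, Dcn, Lum, Gsn and Pdgfra) summed to 429.8 and 554 CPM against 547 and 786 in other macrophages. Gsn gave 66.5% of the member UMIs. Single dKO members held 70.9% of the Col1a1, 50.6% of the Dcn and 38.6% of the Gsn UMIs of their group.

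Across 8493 genes with at least 100 UMIs over both groups and libraries, 41 were at least 2-fold higher in members in both libraries (0.483%) and 259 at least 2-fold lower (3.05%). The median gene differed by -0.10 in Ctrl and -0.06 in dKO. Ranked by the smaller of both ratios under a fixed rule, Syngr1 was followed by Mfge8, encoding the lactadherin that bridges apoptotic cells to phagocytes, at 222 CPM against 59.1 in Ctrl and 307 against 31.1 in dKO. Cd109, a membrane protein that binds TGF-beta, stood at 31.4 against 9.08 and at 16.8 against 3.93. Ctsl, encoding the lysosomal protease cathepsin L, stood at 4153 against 963 and at 3027 against 987. Ctsd, encoding cathepsin D, was among the most abundant, at 9056 against 3064 and at 7211 against 2914. Galns, which encodes a lysosomal sulfatase, differed by 1.35 and 1.49, the folate receptor gene Folr2 by 1.51 and 1.33, the fatty acid transporter gene Slc27a1 by 1.32 and 1.49 and the elastase gene Cela1 by 1.23 and 1.75. Folr2 was higher still in macrophages with at least 3 resident genes, at 665 and 868 CPM against 389.6 and 341 in members. Cela1 was higher in them too, at 68.0 and 89.3 CPM against 60.4 and 55.4 in members.

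**Figure D2:**
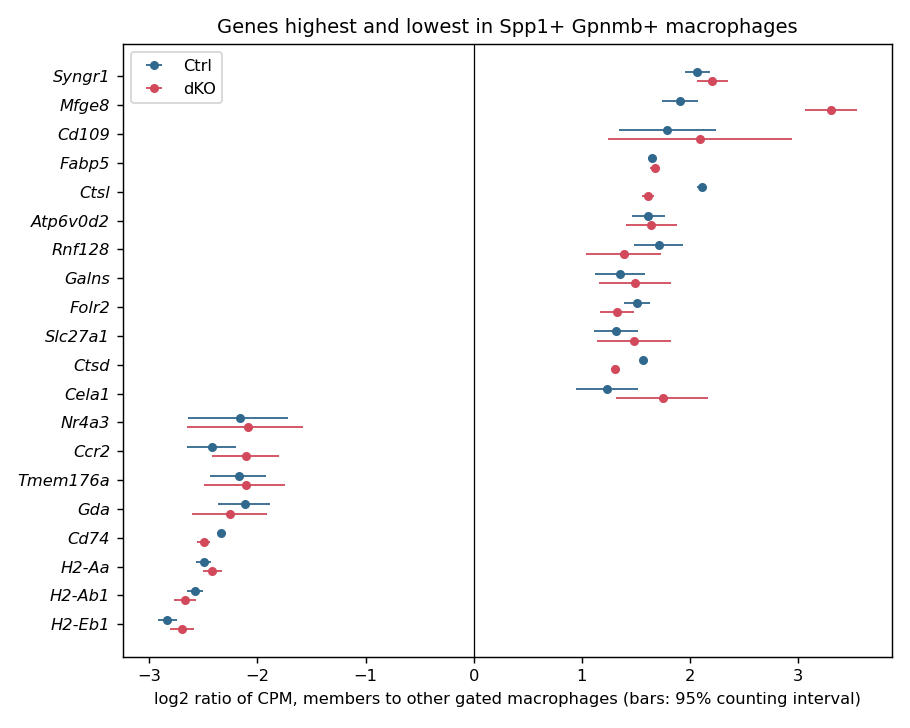
log2 ratio of CPM in members to CPM in other macrophages for the 12 highest and 8 lowest genes under a fixed rule, with Ctrl in blue, dKO in red and bars for 95% counting intervals. All ratios lie on the same side of 0 in both libraries, and Mfge8 is the gene whose ratios lie furthest apart, 1.91 in Ctrl and 3.30 in dKO.

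Lysosomal genes were higher in members as a group. Of 30 genes of lysosomal hydrolases and membrane proteins, 24 had counting intervals above 0 in both libraries, where 7.81% of all genes did, and 4 of them (Ctsd, Ctsl, Ctsk and Naglu) passed 2-fold in both. The list's median was 0.63 in Ctrl and 0.56 in dKO. Ctsb, encoding cathepsin B, differed by 1.05 and 0.97, Cd63 by 0.94 and 0.91, Gusb, which encodes beta-glucuronidase, by 0.96 and 0.79 and Psap, the precursor of saposins, by 0.91 and 0.76. Ctsc, the cathepsin that activates granule proteases, went the other way, at -0.93 and -0.78. Of 15 V-ATPase genes, 14 had intervals above 0 in both libraries, with a median of 0.49 and 0.41. Atp6v0d2 was the 1 V-ATPase gene past 2-fold, and Atp6ap2 the exception at -0.08 in both. At 4000 UMIs per cell the lysosomal list summed to a median of 210.5 UMIs per Ctrl member and 189.5 per dKO member, against 104 and 101 in other macrophages. The genes of the MiT/TFE factors and their regulators, which drive lysosomal genes in other settings, did not share this: 0 of 8 had intervals on 1 side of 0 in both libraries, and Mitf differed by 0.20 and 0.23 and Tfeb by -0.04 and -0.01.

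Genes of lipid uptake and of the Trem2 programme were higher in most cases. Of 19 such genes tested 14 had intervals above 0 in both libraries (7.81% of all genes) and 5 passed 2-fold in both (0.483%; Trem2, Fabp5, Lgals3, Ctsd and Ctsl, of which both cathepsins stand in the lysosomal list too). Trem2, a lipid receptor of macrophages, stood at 1373 CPM in Ctrl members against 649 in other macrophages and at 1268 against 603 in dKO. Cd36, a scavenger receptor for oxidised lipid, differed by 1.58 in Ctrl and 0.95 in dKO, and Lpl, encoding lipoprotein lipase, by 1.40 and 0.66. Plin2, a coat protein of lipid droplets, differed by 0.76 and 0.85. Apoe, the most abundant of the list at 13960.4 and 15717 CPM, differed by -0.10 and 0.15. Axl, a receptor for apoptotic cells, was lower in members, at -1.15 and -1.44. Igf1, a growth factor for muscle, differed by 1.09 and 0.79.

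MHC class II genes were lower as a group. All 7 of the list were at least 2-fold lower in members in both libraries, and all 7 had intervals below 0 in both, where 13.3% of all genes did. H2-Eb1 stood at 337 CPM in Ctrl members against 2403 in other macrophages and at 438 against 2842 in dKO. H2-Ab1 differed by -2.58 and -2.67, H2-Aa by -2.49 and -2.42, and Cd74, the invariant chain, by -2.33 and -2.50. Ciita, the regulator of these genes, differed by -2.04 and -1.62 at low counts. At 4000 UMIs 77.1% of Ctrl and 76.7% of dKO members still held at least 1 MHC class II UMI, against 91.2% and 88.9% of other macrophages. 10 or more were held by 27.1% of Ctrl members (21.3 to 33.7) and 27.6% of dKO members (19.7 to 36.7), against 60.1% and 63.9% of other macrophages. In FAPs the share with 10 or more was 0 of 765, which allows up to 0.392% by the same 3 counts, and 0.388%. Other macrophages with at least 3 Ly6c2 and 1 Chil3 UMIs, 85 in Ctrl and 122 in dKO, were low in these genes too. In them Cd74 stood at 1318 and 2259 CPM against 1501 and 1441 in members, and H2-Aa at 489 and 876 against 524 and 659.

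Most monocyte genes and genes of inflammation were also lower than in other macrophages. Ccr2, the receptor that brings monocytes into tissue, stood at 51.5 CPM against 275 in Ctrl and 59.3 against 255 in dKO. Over all genes 13.3% had intervals below 0 in both libraries and 3.05% were 2-fold lower in both. Of 10 monocyte genes, 8 had intervals below 0 in both and 6 were at least 2-fold lower in both, among them Vcan at -3.00 and -3.51. Msrb1, a methionine sulfoxide reductase, went the other way, at 0.69 and 0.84. Gda, Tmem176a and the immediate early gene Nr4a3 completed the lowest set, at -2.12, -2.17 and -2.17 in Ctrl. Of 11 inflammatory mediators, 7 had intervals below 0 in both libraries and 0 above, and 4 were 2-fold lower in both, among them Il1b at -2.06 and -1.07. Of 15 chemokines 13 had intervals below 0 in both and Pf4, encoding platelet factor 4, alone lay above 0, at 1.26 and 0.94. All 10 genes of dissociation and stress (Fos, Jun, Hspa1a and others) also had intervals below 0 in both libraries, and their part in these differences was not tested.

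**Figure D3:**
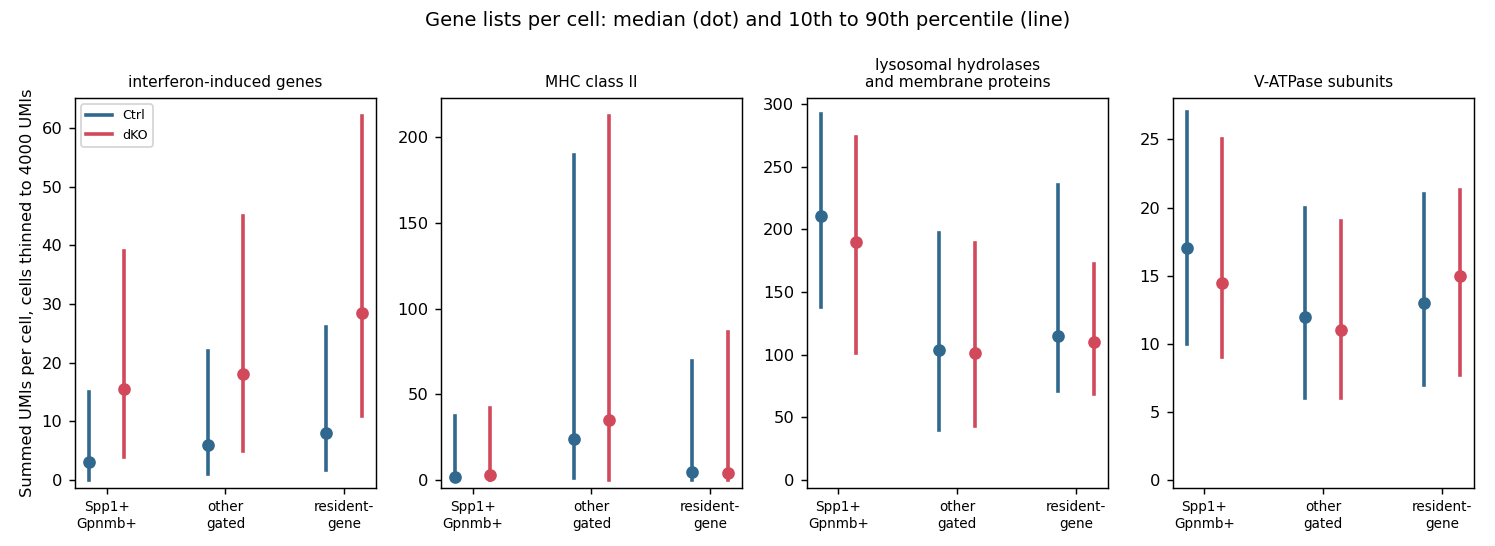
Summed UMIs per cell of 4 gene lists after thinning each cell to 4000 UMIs, with the median as a dot and the 10th to 90th percentile as a line, for members, other macrophages and macrophages with at least 3 resident genes. Lysosomal sums are highest in members of both libraries and V-ATPase sums are highest in Ctrl members. MHC class II sums are low in members (medians 2 in Ctrl and 3 in dKO) and in resident-gene macrophages (5 and 4), against 24 and 35 in other macrophages. Interferon-induced sums of members are higher in dKO (median 15.5) than in Ctrl (median 3).

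Between the libraries, the 10 genes furthest up in dKO members, among those with under 20% of their UMIs in 1 cell, held Ifit3 and Ifit2 of the interferon-induced list and Ly6c2 and Plac8 of the monocyte list. The other 6 (Ly6a, Ifi205, Slfn1, Acod1, Slfn4 and AW112010) stood in none of the lists. The 10 furthest down held Mmp12 and Mmp13 of the matrix degradation list and Fn1, Itgax and Cx3cr1 of other lists. Of 4884 genes with at least 100 UMIs in members, 109 were at least 2-fold higher in dKO (2.23%) and 39 at least 2-fold lower (0.799%), with a median log2 ratio of 0.02. Counting intervals lay above 0 for 17.4% of these genes and below 0 for 13.8%. With each cell thinned to 4000 UMIs the counts were 162 and 129, and they shared 81 and 30 genes with the 109 and 39.

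Interferon-induced genes were higher in dKO members almost throughout. Of 13 tested, 12 were at least 2-fold higher, and Rsad2, encoding viperin, was the exception at 0.98 (0.82 to 1.15). The list summed to 1492 CPM in Ctrl and 4592 in dKO, a log2 ratio of 1.62 (1.57 to 1.67) in members and 1.16 in other macrophages. Ifit3, encoding an antiviral RNA-binding protein, stood at 33.8 CPM in Ctrl and 222 in dKO (2.71, interval 2.40 to 3.03) and had a UMI in 34 of 212 and 49 of 120 members. Ifit2 stood at 33.2 and 184 CPM (2.47, 2.15 to 2.80). Irf7, the factor that amplifies interferon responses, stood at 84.7 and 408 CPM (2.27, 2.06 to 2.47). Ifi27l2a, the most abundant of the list, stood at 835 and 2317 CPM (1.47, 1.40 to 1.54). Outside the list, Ifi205, Slfn1 and Slfn4 were higher by 2.86, 2.69 and 2.56.

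The interferon difference was broad over cells and over cell types. Cells with 3 or more UMIs of the list at 4000 UMIs made up 55.7% of Ctrl (48.7 to 62.5) and 97.4% of dKO members (92.6 to 99.5). In other macrophages they made up 75.7% and 95.6%, in FAPs 37.4% and 79.8%, and in endothelial cells 54.4% and 78.8%. Ctrl members lay below Ctrl other macrophages, at a median of 3 against 6 UMIs, and dKO members nearer to theirs, at 15.5 against 18. FAPs and endothelial cells moved in the same direction, so how much of the member values is RNA from other cells was not tested.

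Some monocyte genes were higher in dKO members. Of 7 tested, 3 were at least 2-fold higher (2.23% of all genes), 5 had intervals above 0 (17.4%) and 0 below (13.8%). Ly6c2, the surface antigen that marks inflammatory monocytes of the mouse, stood at 54.2 CPM in Ctrl and 384 in dKO members (2.82, interval 2.58 to 3.07), and at 167 and 365 in other macrophages (1.13). The highest member held 15 Ly6c2 UMIs in Ctrl and 73 in dKO, the 90th percentile was 2 and 12.3, and the median was 0 in both. At 4000 UMIs Ly6c2 was seen in 14.3% of Ctrl members (9.85 to 19.8) and 36.2% of dKO members (27.5 to 45.6), or 23.1% and 48.3% before thinning. In FAPs it was seen in 0.523% and 0.129%. Plac8, another gene of monocytes, stood at 26.4 and 152 CPM (2.53), and Clec4e, the lectin Mincle, at 90.1 and 182 (1.01). Without the top cell of each library Clec4e stood at 82.7 and 161. Ccr2 (0.20), Msrb1 (0.04), Chil3 (0.57) and Thbs1 (0.30) stayed under 2-fold. Leaving out members with at least 3 Ly6c2 and 1 Chil3 UMIs, a choice made after the data had been seen, lowered the count of genes 2-fold higher from 109 to 86.

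Ly6a, encoding the surface antigen Sca-1, gave the largest ratio of the genes with under 20% of their UMIs in 1 cell, 18.4 CPM in Ctrl and 257 in dKO members (3.81, interval 3.42 to 4.22). 46 of 212 and 56 of 120 members held a UMI, and the highest held 7 and 53. Ly6a was also higher in dKO in other macrophages (2.60) and in FAPs, where 88.2% and 97.3% of cells held it at 4000 UMIs with means of 5.64 and 10.6 UMIs, against 7.14% and 31.0% of members with means of 0.0905 and 1.06. The part of FAP RNA in the Ly6a value was not tested.

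Some genes of inflammatory signals were higher in dKO members. Of 9 inflammatory mediators and brakes tested, 2 were at least 2-fold higher in dKO (Il1b and Il10, 2.23% of all genes), 5 had intervals above 0 (17.4%) and 2 below (13.8%). Il1b stood at 127 and 362 CPM (1.51, interval 1.33 to 1.70), Il10 at 24.3 and 51.6 (1.09) and Tnf at 34.7 and 68.9 (0.99). Ptgs2, encoding cyclooxygenase 2, stood at 104 and 83.8 CPM (-0.32), and at 85.4 and 73.1 without the top cell of each library. Acod1, which encodes the enzyme that makes itaconate and stood outside the list, was at 8.89 and 56.7 CPM (2.67), and 17 of 120 dKO members held it. Of 14 chemokines tested, 4 were at least 2-fold higher, 8 had intervals above 0 and 2 below (Pf4 at -0.54 and Ccl6 at -0.19), the last near the share of all genes. Ccl4 stood at 135 and 613 CPM (2.18) and Ccl8 at 59.8 and 189 (1.66). Ccl12 stood at 7.998 and 94.1 CPM (3.56) and Ccl5 at 3.85 and 74.1 (4.27), but single dKO members held 39.7% of the dKO total of Ccl12 and 47.8% of that of Ccl5. Ccl12 was in 15 of 212 and 31 of 120 members and stood at 57.1 CPM in dKO without its top cell. Ccl5 was in 5 and 12 members and stood at 39.1 CPM without its top cell. Il10 stood at 20.8 CPM in Ctrl and 42.8 in dKO without the top cell of each library. Cxcl2, the most abundant neutrophil-attracting chemokine, stood at 1163 and 1204 CPM (0.05).

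Of 10 matrix degradation genes tested, 3 were at least 2-fold lower in dKO members (Mmp12, Mmp13 and Mmp14), 6 had intervals below 0 and 2 above, where 0.799% of all genes were 2-fold lower and 13.8% and 17.4% had intervals below and above 0. The list summed to 2762 CPM in Ctrl and 1999.6 in dKO, with Mmp12 making up much of the gap. Mmp12, encoding macrophage elastase, stood at 863 CPM in Ctrl and 291 in dKO (-1.57, interval -1.71 to -1.42), and 101 of 212 and 26 of 120 members held a UMI. The highest Ctrl member held 282 UMIs and the highest dKO member 180, which is 39.8% of the dKO total. Without the top cell of each library Mmp12 stood at 788 CPM in Ctrl and 179 in dKO members. In other macrophages Mmp12 stood at 501 and 312 CPM (-0.68). Mmp13, encoding collagenase 3, stood at 76.4 and 22.6 (-1.76) and Mmp14 at 85.3 and 41.9 (-1.03). Ctsk, a collagen-degrading cathepsin, stood at 40.9 and 76.0 (0.90), but 1 dKO member held 40.7% of the dKO total. Without the top cell of each library Ctsk stood at 38.0 and 46.0. Plau, encoding urokinase, stood at 25.8 and 36.7 (0.51).

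Fn1, encoding fibronectin, stood at 359 and 115 CPM (-1.65, interval -1.88 to -1.42), with a UMI in 152 of 212 and 41 of 120 members. FAPs made Fn1 at like levels in both libraries, at means of 7.28 and 7.77 UMIs per thinned cell, against 1.66 and 0.422 in members. Itgax, the integrin CD11c, stood at 113 and 39.3 CPM (-1.52), and Cx3cr1, the fractalkine receptor, at 110.5 and 46.4 (-1.25). Chst11, a chondroitin sulfotransferase, stood at 40.3 and 13.5 CPM in members (-1.57) and at 13.4 and 13.5 in other macrophages (0.01). Npl, an enzyme of sialic acid breakdown, stood at 27.3 and 9.02 CPM (-1.60). Tspan13, a tetraspanin, differed by -1.49, Zranb3 by -1.43 and Prune2 by -1.35. Under other settings some of the genes lower in dKO members came within 2-fold: Mmp13 at -0.66 with limits in CPM, Cx3cr1 at -0.85 with stricter limits, Npl at -0.88 at equal depth, Prune2 at -0.96 with looser limits and Zranb3 at 0.022 in members with no neutrophil UMI and at -0.40 without the cells of most UMIs.

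**Figure D4:**
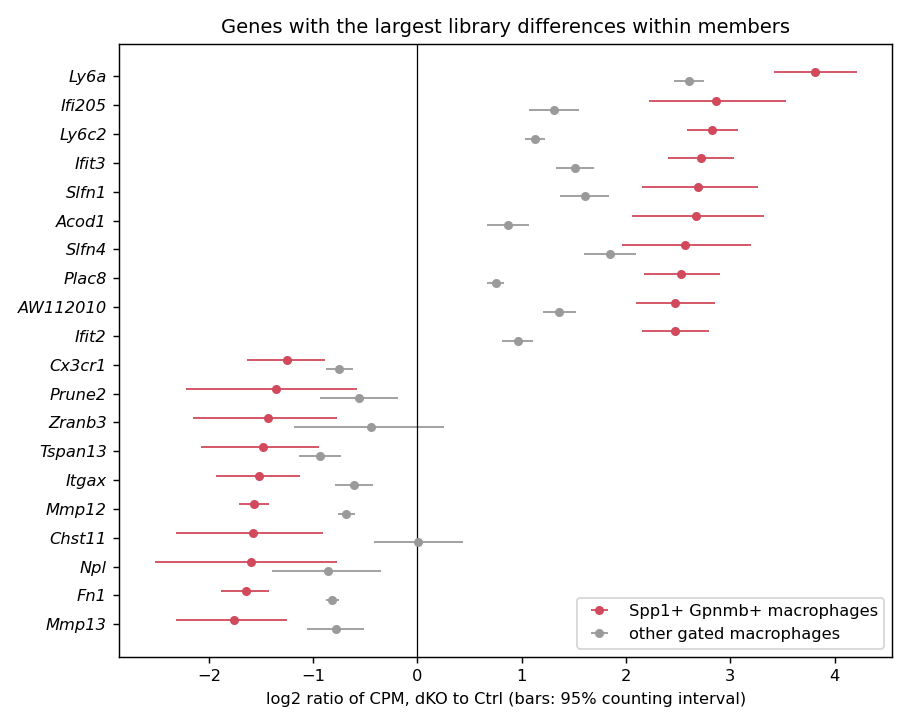
log2 ratio of CPM, dKO to Ctrl, for the 10 highest and 10 lowest genes in members under a fixed rule, in members (red) and in other macrophages (grey), with bars for 95% counting intervals. The genes were picked by their ratio in members, the points of other macrophages lie nearer to 0 for each of the 20, and Chst11 is at 0.01 in them.

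Most genes of lipid uptake and of the Trem2 programme were lower in dKO members. Of 19 genes of the Trem2 and lipid-associated list, 13 had intervals below 0 (13.8% of all genes) and 4 above (17.4%; Cd52, Apoe, Plin2 and Fabp5, of which Fabp5, at 0.06, was below 0 under 3 other settings), and Itgax was the 1 past 2-fold, downwards. Of 13 cholesterol and PPAR/LXR genes tested, 5 had intervals below 0 and 2 above. That list summed to 0.15, with 92.8% of its UMIs from Apoe, and to -0.082 in members with no neutrophil UMI and -0.016 without the deepest cells. Lpl stood at 2429 CPM in Ctrl and 1286 in dKO members (-0.92, interval -0.99 to -0.85), with medians of 20.5 and 6.5 UMIs per member, and differed by -0.19 in other macrophages. Cd36 stood at 1521 and 784 CPM (-0.96, -1.05 to -0.87), with medians of 15 and 5.5 UMIs, and differed by -0.33 in other macrophages. Cd9, a tetraspanin, stood at 527 and 277 (-0.93) and Acp5, encoding tartrate-resistant acid phosphatase, at 192 and 96.7 (-0.99). Of 13 genes of efferocytosis and scavenging, 7 had intervals below 0 (13.8% of all genes) and 1 above (17.4%). The 1 above was Mfge8 at 222 and 307 CPM (0.47), or 190 and 223 without the top cell of each library. The sum of this list differed by -0.55 (-0.60 to -0.49) in members and -0.25 in other macrophages, with 46.0% of its member UMIs from Cd36. Lysosomal genes summed to -0.21 (-0.22 to -0.20), with 13 of 27 intervals below 0 (13.8% of all genes) and 5 above (17.4%). V-ATPase genes summed to -0.17, with 8 of 15 intervals below 0 and 0 above. In these lists 0 of 27 and 0 of 15 were past 2-fold, where 2.23% of all genes were 2-fold higher and 0.799% lower.

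Among the label markers Fabp5 (0.06), Syngr1 (0.09) and Hk3 (-0.05) were level between the libraries, while Rnf128 (-0.68, interval -0.99 to -0.37) and Atp6v0d2 (-0.51, -0.71 to -0.31) were lower in dKO and Lgals3 differed by -0.16. The study's inflammatory macrophage panel (Spp1, Fabp5 and Cd36), chosen by the study on these same libraries, holds Spp1, which chose the members, so no sum is given, and Fabp5 and Cd36 differed by 0.06 and -0.96. Its restorative panel (C1qa, C1qb and C1qc) differed by -0.03. Osteopontin receptors summed to -0.27, with Itgb1 at -0.55, Itgav at -0.53, Itgb5 at -0.50 and Cd44 at -0.03. Growth factors went both ways: Tgfb1 stood at 321 and 227 CPM (-0.50) and Gdf15 at 113 and 227 (1.01). Without the top cell of each library Gdf15 stood at 102 and 198. Gdf15 was the 1 of 11 past 2-fold upwards (2.23% of all genes) and Fn1 the 1 downwards (0.799%). Of the 11, 4 had intervals above 0 (17.4%) and 5 below (13.8%).

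Metabolic lists held no gene past 2-fold (0 of 16, 0 of 8 and 0 of 8), near the shares of all genes (2.23% higher and 0.799% lower). Glycolysis genes summed to -0.17, with 8 of 16 intervals below 0 (13.8% of all genes) and 2 above (17.4%). Iron and heme genes summed to -0.01, with 2 of 8 below and 3 above. Antioxidant genes summed to -0.10, with 2 of 8 below and 2 above. Complement genes summed to 0.01, with 4 of 7 intervals above 0 (17.4% of all genes) and 1 below (13.8%). Cfb, the factor B of the alternative pathway, stood at 14.8 CPM in Ctrl and 79.3 in dKO members (2.42, interval 1.93 to 2.92). It was the 1 of 7 past 2-fold, where 2.23% of all genes were 2-fold higher.

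Other signals moved with the libraries beside these results. The neutrophil list stood at 2395 CPM in Ctrl and 258 in dKO other macrophages, and in members 91.5 and 31.6 CPM remained without the top 2 cells of each library. Stress genes summed to 4165 and 5167 CPM (0.31), with Egr1 at 1.48 and Hspb1 at -1.04. Muscle fibre markers summed to 43.0 and 17.4 CPM and MuSC markers to 14 and 38 UMIs, of which 14 Des UMIs came from 1 dKO member. The part of these in the differences between libraries was not tested.

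Members varied widely among themselves. Grouped by Spp1 UMIs (from 20, from 40, from 80, and from 160 upwards), the 212 Ctrl members fell into 57, 64, 45 and 46 cells and the 120 dKO members into 49, 40, 22 and 9. Median depth went up over these groups, from 11272 to 18844.5 UMIs in Ctrl and from 10093 to 17855 in dKO. Fabp5 stood at 3158 CPM in the first and 5473 in the last group in Ctrl, and at 3606 and 5746 in dKO. Syngr1 stood at 338 and 656 in Ctrl and at 437 and 684 in dKO. Ctsl stood at 3316, 3081, 3505 and 6375 over the 4 groups in Ctrl and at 2456, 3590, 2767 and 3853 in dKO. Cd74 was lower with each group in Ctrl, from 2726 to 951 CPM, while in dKO it stood at 1826, 928, 1180 and 2222. The last dKO value rests on 9 cells, and without the cell with most Cd74 UMIs it was 771. Ly6c2 was higher in dKO than in Ctrl in all 4 groups, at 375, 406, 486 and 138 CPM against 64.5, 37.6, 58.6 and 59.2. Without the top cell of each library the last groups stood at 44.9 in dKO and 44.3 in Ctrl. Mmp12 in the 9 cells of the last dKO group stood at 1249 CPM, where 1 cell held 180 of 190 UMIs, and at 82.1 without that cell.

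**Figure D5:**
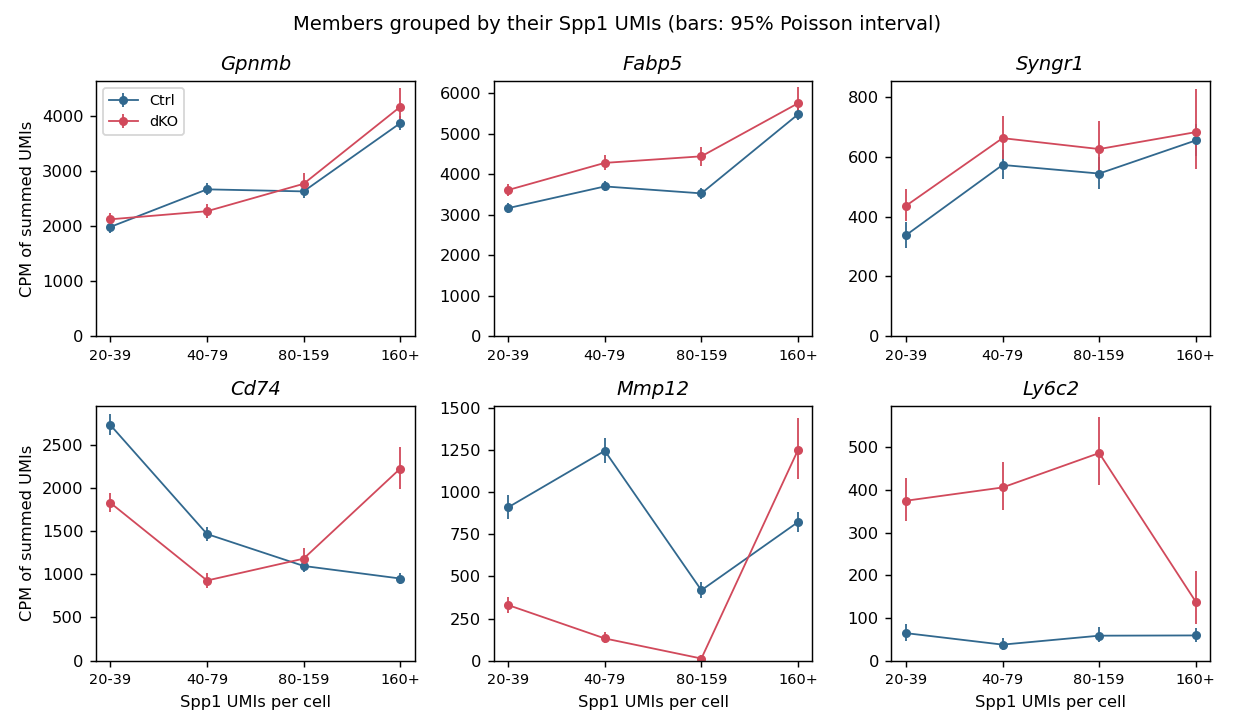
CPM of 6 genes in members grouped by their Spp1 UMIs (horizontal axis), with Ctrl in blue, dKO in red and bars for 95% Poisson intervals of the summed counts. Gpnmb, Fabp5 and Syngr1 are higher in the last group than in the first, and Ly6c2 is higher in dKO in every group. In the last group, of 9 dKO cells, Ly6c2 stood at 44.9 CPM in dKO and 44.3 in Ctrl without the top cell of each library. In that dKO group 1 cell held 180 of the 190 Mmp12 UMIs.

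Across cells thinned to 4000 UMIs, Spearman's rho between Gpnmb and Fabp5 was 0.40 over 210 Ctrl and 0.37 over 116 dKO members, and between Gpnmb and Syngr1 0.36 and 0.33. Between Spp1 and Gpnmb, both used to choose the cells, it was 0.22 and 0.19. Cells of 1 library share its reaction and its depth, and these values are a description. By the ratio of variance to mean at 4000 UMIs, Apoe ranked first of the protein-coding genes in members (70.8 in Ctrl and 69.4 in dKO). The median was 1.15 and 1.17 over 2281 genes with over 0.2 UMIs per cell. By the smaller of both values, and leaving out Spp1, Apoe was followed by Cd74 (31.9 and 30.8) and the ferritin genes Fth1 (26.6 and 26.5) and Ftl1 (21.8 and 24.2). Then came the heat shock gene Hspa1b (17.8 and 17.1), H2-Aa (19.1 and 16.3), Cxcl2 (27.9 and 15.4) and Selenop (15.98 and 14.3). Lgals3 (14.3 and 15.1) and Ctsl (19.9 and 14.3) came next. This ratio tends to go up with a gene's mean, so it ranks abundance as well as spread. Fth1 had means of 106 and 117 UMIs per cell, and H2-Aa of 2.31 and 2.78.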

How the data were processed

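Live cells of hind limb muscle were profiled in 1 Ctrl and 1 dKO library (3 pooled mice each). The authors deposited raw UMI counts per gene and cell for called barcodes. Per the labels they were made with Cell Ranger 7.0.0 on mm10 and analysed in Seurat 4.3.0, while the matrix headers carry software version 3.0.2. The files hold 0 mitochondrial symbols. UMIs were summed over cells and scaled to 1000000 (CPM). Ratios used an exact conditional binomial interval and genes with at least 100 UMIs. Fixed rules gave 37 gene lists and the named genes: those with the largest ratios, in dKO against Ctrl with under 20% of UMIs in 1 cell, against other macrophages with at least 200 UMIs and in 20% of cells. Members, limits and lists were chosen with earlier results of these data known. Thinning used seed 11. Scrublet (scanpy 1.11.5) marked 4 and 14 cells by its own threshold, so none were removed here, although the kept cells equal in number those the study gives after its filters and doublet removal, and an alternative removed the 7.5% with the highest scores (3 of 212 and 7 of 120 members). FAPs had at least 2 Pdgfra UMIs and endothelial cells Cdh5 and Pecam1. Calculations used Python 3.11.15, numpy 2.4.6 and scipy 1.17.1 and were tested on simulated data. Gene positions are from GENCODE M21 (GRCm38), promoters from RefSeq.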

Additional observations from a re-analysis of the deposited data

Results flagged for a closer look

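For 12 genes of the lists named above and 3 lists as sums the log2 ratio of dKO to Ctrl had opposite signs in Spp1+ Gpnmb+ macrophages and in other macrophages, with counting intervals on opposite sides of 0. The difference between the 2 ratios was not tested, since each group was 1 library. Over all genes with at least 100 UMIs in members, 70 of 4884 (1.43%) did so. Mfge8, the bridge to apoptotic cells, was at 0.47 in members and -0.92 in other macrophages, and was the furthest apart of the 12. But 1 dKO member held 28.5% of the dKO UMIs and 1 Ctrl member 15.1% of the Ctrl UMIs. Without the top cell of each library members stood at 190 CPM in Ctrl and 223 in dKO. Selenop, a selenium carrier of resident macrophages, was at 0.36 and -0.36, Apoe at 0.17 and -0.086, and Chil3 at 0.57 and -0.10. Thbs1 was at 0.30 and -0.092, Cxcl3 at 0.68 and -0.50, and Jun at 0.51 and -0.065. Pdgfa, a ligand of PDGF receptors on FAPs, was at -0.67 in members and 0.28 in other macrophages. C1qa was at -0.22 and 0.21, Ccl6 at -0.19 and 0.33, Hspa1b at -0.11 and 0.20, and Col3a1, a collagen gene of FAPs, at -0.49 and 0.40. The resident macrophage list, which holds the 6 resident genes of the limits, summed to 0.19 and -0.24, with 61.5% of its member UMIs from Selenop. The cholesterol and PPAR/LXR list summed to 0.15 and -0.085, with 92.8% from Apoe, and the MuSC list to 2.56 and -1.79, the last on 14 and 38 UMIs in members, of which 14 Des UMIs lay in 1 dKO member. Cxcl3 stood at 55.4 CPM in all Ctrl members, and at 42.4 in Ctrl and 66.9 in dKO without the top cell of each library.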

How the results depend on the processing

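Of the settings tried, those that left out neutrophil RNA, members with monocyte genes or a gene's top cell were chosen after the data had been seen. The share of members among cells with at least 5000 UMIs, thinned to 5000, differed by -2.23 points. Leaving out gated macrophages with any neutrophil UMI gave 0.915 points among all cells, and 0.150 among gated macrophages. All other settings kept both shares lower in dKO. Genes 2-fold higher in dKO numbered 60 with no neutrophil UMI, 183 and 40 at minimums of 50 and 300 UMIs and 1209 with none. Genes 2-fold lower numbered 13, 75, 10 and 559, and 129 at 4000 UMIs per cell. Genes higher in members numbered 25 with no neutrophil UMI and 150 with no minimum, and genes lower in members 142 at 300 UMIs and 419 with none. Over all settings the interferon list lay between 1.43 and 1.65, Ly6c2 between 2.18 and 2.91 and Mmp12 between -2.30 and -1.10. Signs turned as follows. With no neutrophil UMI Zranb3 gave 0.022, the resident list -0.022, the cholesterol list -0.082, antioxidant genes 0.056, growth factors 0.060 and MHC class II -0.40. MHC class II also gave -0.067 with looser limits, -0.042 without doublets, -0.14 without the deepest cells and -0.15 without monocyte-gene members, and the cholesterol list -0.016 without the deepest cells. Fabp5 gave -0.067 with looser limits, -0.034 with limits in CPM and -0.0096 with cycling cells. Macrophage identity genes gave 0.066 with stricter limits and 0.016 with cycling cells, and FAP markers -0.35 with stricter limits and -0.42 without doublets. The cause of these turns was not tested. No paired analysis was possible because each group was 1 library.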
